A study of Bos taurus with 20 samples.

Results

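The theca layer (TH) and the cumulus cells (CC) of bovine antral follicles were compared on 8 arrays, 4 of TH and 4 of CC, out of the 20 arrays of the series. Both groups came from follicles of 3 to 6 mm in the ovaries of slaughtered cattle and are labelled immature. TH is the material scraped from the follicle wall after the follicle had been emptied, and CC are the cells that surround the oocyte, taken before in vitro maturation. Each of the 4 arrays of a group is labelled as a separate replicate, but the labels give neither the animals nor the number of follicles behind an array. The arrays were chosen by their titles alone, and all 22550 genes or transcripts of the array were tested, with no filter on signal. Replicates 1 and 2 of both groups were on 1 slide and replicates 3 and 4 on another.

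The wall of an antral follicle has the mural granulosa cells on the inside, then a basal lamina, and outside it the theca. The theca interna holds steroid-producing cells that answer luteinizing hormone and make androgens, together with blood vessels, fibroblasts, and leukocytes. Cumulus cells belong to the granulosa lineage, lie inside the basal lamina away from the vessels, and are joined to the oocyte by gap junctions. They pass metabolites such as pyruvate to the oocyte, which uses little glucose itself. A scraped layer can hold every cell type of the wall.

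Probes of 4 genes that carry the contrast are shown as printed on the array, 5′ to 3′, with the transcript each one was designed on (coordinates on UMD 3.1). They are from the steroid 17-alpha-hydroxylase CYP17A1 (chr26:23694362-23700404), the hormone AMH of granulosa cells (chr7:22696978-22699843), the matrix proteoglycan DCN (chr5:21080013-21119087), and the nuclear receptor PPARG (chr22:57367201-57489590).
CYP17A1: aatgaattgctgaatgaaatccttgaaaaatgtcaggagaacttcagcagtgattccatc
AMH: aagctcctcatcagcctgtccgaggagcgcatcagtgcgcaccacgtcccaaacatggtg
DCN: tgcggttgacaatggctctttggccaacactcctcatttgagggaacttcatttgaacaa
PPARG: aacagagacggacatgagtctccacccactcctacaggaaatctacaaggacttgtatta
A level is given below as log2 intensity relative to the 75th percentile of its array, so that 0 is that percentile. On this scale the CYP17A1 probe read -1.17 ± 0.60 in TH (mean ± SD, n = 4) and -7.27 ± 0.14 in CC, where it was well above background on 0 of 4 arrays. The AMH probe read 1.10 ± 0.62 in TH and 4.46 ± 0.19 in CC, the DCN probe 5.73 ± 0.12 and -2.38 ± 0.94, and the PPARG probe -0.04 ± 0.28 and 4.86 ± 0.13. The other DCN probe differed less, so that DCN as a gene differed by 4.31 ± 0.30 over probe differences of 0.50 and 8.12, and its call was lost with the brightest probe alone. Levels of different probes cannot be set against each other, so each difference below is within a gene between groups. Where the levels of a list are summed on an array, the brightest probes carry most of the sum.

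An array held 61325 probes, of which 59.1% to 61.8% were well above background in TH and 58.9% to 62.8% in CC. Correlations between arrays were taken on the 12441 genes detected on each of the 8 arrays. They were 0.965 to 0.992 within TH, 0.985 to 0.992 within CC, and 0.885 to 0.922 between TH and CC. Every array thus correlated more closely with its own group than with the other. By limma, 7165 of 22550 genes (31.8%) had an adjusted p under 0.05, which is the threshold for a call throughout. Of these, 3242 (14.4% of all genes) were higher in TH and 3923 (17.4%) were higher in CC. When arrays were scaled on the percentile of the probes detected on all arrays, which moved the median of all genes by 0.20, the counts were 4243 and 2843. The TH side held the larger differences, with 306 genes called beyond 5 on the log2 scale against 73 on the CC side. Among all calls, 638 towards TH and 509 towards CC were above background on no array of the other group. The size of such differences depends on the background level, and the counts beyond 5 include them. In bulk RNA, fewer cells of a type and less RNA per cell cannot be told apart, so each difference is one of RNA content in the sample.

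**Figure D1:**
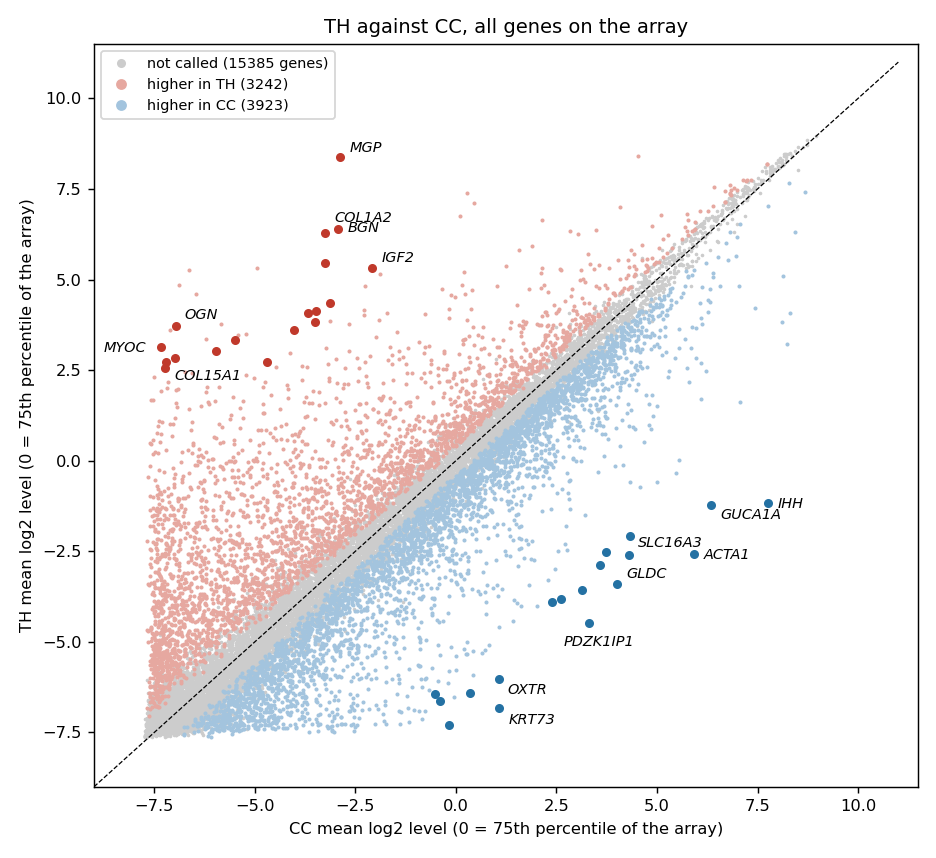
Mean log2 level in TH (vertical axis) against CC (horizontal axis), each mean of 4 arrays, for all 22550 genes, with 0 at the 75th percentile of the array. Red points are the 3242 genes higher in TH, blue points the 3923 higher in CC, grey points were not called, and the larger dark red and dark blue points are the 36 genes with the largest differences or bounds, some of them named.

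The markers of steroid-producing theca cells were higher in TH or not called. Of the 6 genes listed, 4 were higher in TH, 0 were higher in CC, and 2 did not pass, with a median difference of 4.66 against -0.0003 over all genes. The median ran from 2.75 to 5.23 over the 25 alternative settings, and such a range follows each list median below (a filter on dim genes, among these settings, leaves fewer members). Each list count stands beside 14.4% of all genes higher in TH and 17.4% higher in CC. CYP17A1, which makes the androgen precursors, read 0.01, -0.51, -0.81, and 0.44 on TH replicates 1 to 4 and -6.30, -7.20, -7.34, and -7.28 on CC replicates 1 to 4. It was above background on all TH arrays and on no CC array, so CYP17A1 was at least 36.7-fold higher in TH (limma, adjusted p = 1.14e-07). INSL3, the relaxin-like hormone of the theca, was at 8.86, 8.20, 8.72, and 7.90 in TH and at 4.27, 4.70, 4.38, and 4.79 in CC, a difference of 3.89 ± 0.43 (± SE, adjusted p = 4.03e-06). Its groups did not overlap, and CC was above background on all 4 arrays. The luteinizing hormone receptor LHCGR and the cholesterol carrier STAR differed by 6.23 ± 0.66 and 5.43 ± 0.64 (adjusted p = 2.50e-06 and 7.79e-06), with LHCGR above background on 2 of 4 CC arrays. The side chain cleavage enzyme CYP11A1 (1.27 ± 0.55, adjusted p = 0.0978) and HSD3B1 (0.50 ± 0.43, adjusted p = 0.468), enzymes that granulosa cells also carry, did not pass. The list summed to 308 to 545 in TH and 54.1 to 70.4 in CC, in multiples of the 75th percentile intensity, most of it from INSL3 in TH and from HSD3B1 and INSL3 in CC.

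The granulosa markers gave the opposite picture in nearly every member. Of 15, 14 were higher in CC and 1 was higher in TH, with a median of -3.38 (range -3.81 to -2.94). AMH, which restrains follicle growth, read 3.12, 2.38, 2.42, and 3.42 in TH and 5.93, 6.05, 5.78, and 6.11 in CC (-3.13 ± 0.31, adjusted p = 1.15e-06). INHBA, the subunit of activin A, read 4.16, 4.03, 3.67, and 4.49 in TH and 8.35, 8.27, 8.35, and 8.29 in CC (-4.23 ± 0.36, adjusted p = 2.53e-07). In both genes the highest TH array was well below the lowest CC array, yet all TH arrays were above background. The receptor FSHR differed by -5.58 ± 0.34 (adjusted p = 7.22e-09), the aromatase CYP19A1 by -5.61 ± 0.74 (adjusted p = 2.39e-05), and the activin-binding follistatin FST by -4.27 ± 0.25 (adjusted p = 4.73e-09). CYP19A1 was above background on 2 of 4 TH arrays. The inhibin subunit INHBB and the AMH receptor AMHR2 were above background on all CC arrays and no TH array, higher in CC by at least 11.3-fold and 2.84-fold (adjusted p = 3.27e-07 and 1.78e-05). The exception was KITLG, the kit ligand that granulosa cells offer to the oocyte and the theca. It read -4.35, -4.0, -3.90, and -4.36 in TH and -6.08, -6.96, -6.08, and -5.96 in CC, a difference of 2.12 ± 0.28 (adjusted p = 2.07e-05), with 1 of 4 CC arrays above background. The summed level of the granulosa list was 171 to 294 in TH and 1140 to 1230 in CC on the same scale, and 2 of its 15 genes were at background on every TH array. The part of granulosa RNA in the other TH values was not tested.

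**Figure D2:**
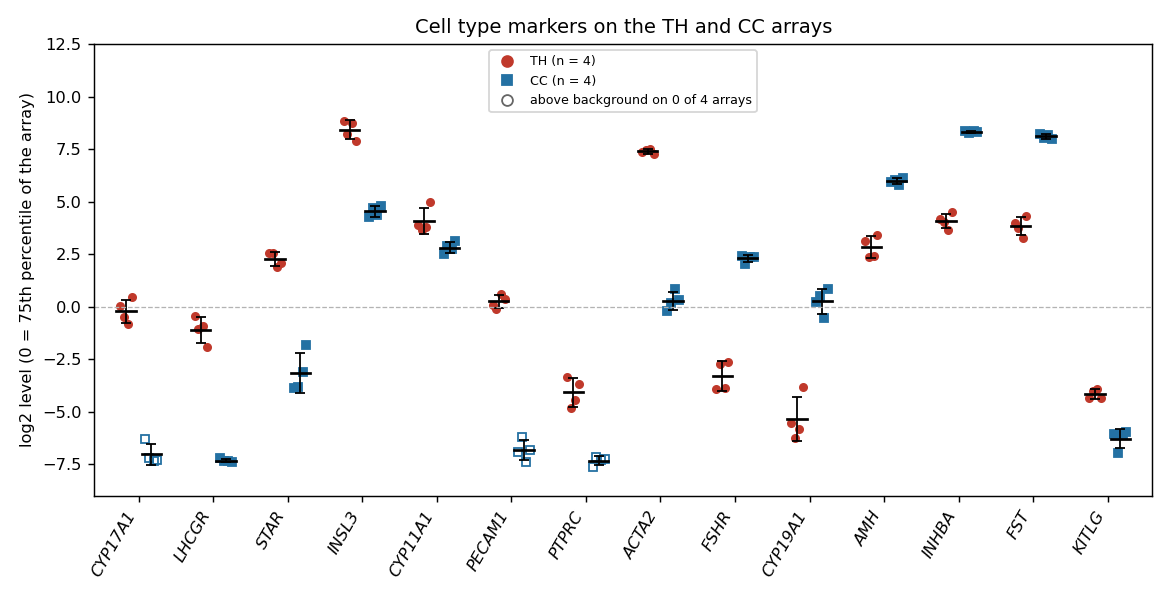
Log2 level (0 at the 75th percentile of the array) of 14 marker genes on the 4 TH arrays (red circles) and the 4 CC arrays (blue squares), with mean and SD. Open symbols mark a group above background on 0 of 4 arrays. CYP17A1, LHCGR, STAR, INSL3, PECAM1, PTPRC, ACTA2, and KITLG were called higher in TH, FSHR, CYP19A1, AMH, INHBA, and FST were called higher in CC, and CYP11A1 was not called. Levels compare within a gene.

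TH also carried the RNA of vessels, mural cells, and blood-derived cells. Of 16 endothelial markers, 15 were higher in TH and 0 in CC, with a median of 3.73 (range 2.04 to 3.98). PECAM1, the adhesion molecule of endothelial junctions, read 0.09, -0.09, 0.63, and 0.37 in TH and -6.91, -6.18, -7.39, and -6.80 in CC, at least 50.6-fold higher (adjusted p = 7.23e-08). The guidance receptor ROBO4 (8.73 ± 0.55, adjusted p = 1.04e-08), the sialomucin EMCN (8.55 ± 0.69, adjusted p = 1.35e-07), and the clotting factor carrier VWF (6.40 ± 0.59, adjusted p = 5.40e-07) were among the largest differences, with ROBO4 above background on 3 and EMCN and VWF on 1 of 4 CC arrays. The VEGF receptor KDR differed by 2.35 ± 0.42 as a gene (adjusted p = 3.93e-04), although its 2 probes gave -1.84 and 6.55, and the other VEGF receptor FLT1 did not pass (-0.08 ± 0.35, adjusted p = 0.911). The summed level of the endothelial list was 20.7 to 33.1 in TH against 0.557 to 0.897 in CC.

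Of 14 smooth muscle and pericyte markers, 11 were higher in TH, with a median of 4.29 (range 2.80 to 4.49) and summed levels of 231 to 259 in TH and 9.27 to 11.3 in CC. Smooth muscle actin ACTA2 read 7.35, 7.46, 7.50, and 7.26 in TH and -0.22, 0.17, 0.83, and 0.30 in CC (7.12 ± 0.49, adjusted p = 2.92e-08). All 4 TH arrays lay within a narrow band far above CC. The pericyte regulator RGS5 was at background on every CC array and higher in TH by at least 60-fold (adjusted p = 3.80e-08), and the myosin heavy chain MYH11 differed by 4.20 ± 0.35 (adjusted p = 2.25e-07). The adhesion molecule MCAM went the other way, higher in CC (-2.29 ± 0.27, adjusted p = 7.38e-06).

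Of 19 leukocyte markers, 15 were higher in TH and 0 in CC, with a median of 3.24 (range 1.59 to 4.13). PTPRC, the common leukocyte phosphatase CD45, read -3.35, -4.82, -4.43, and -3.69 in TH and -7.64, -7.17, -7.30, and -7.23 in CC. It was above background on all TH arrays and on no CC array, higher in TH by at least 2.53-fold (adjusted p = 8.45e-05), a call lost within the first slide. Markers of macrophages (CSF1R, 4.85 ± 0.51, adjusted p = 2.05e-06), T cells (CD3E, at least 20.8-fold, adjusted p = 1.23e-06), and mast cells (CPA3, at least 6.27-fold, adjusted p = 1.09e-06) were higher in TH, with CD3E and CPA3 at background on all CC arrays. The macrophage markers CD68 (0.72 ± 0.47, adjusted p = 0.297) and CD163 (1.18 ± 0.57, adjusted p = 0.141, above background on 1 TH and 1 CC array) did not pass, and the B cell marker MS4A1 was not above background on any of the 8 arrays. The leukocyte list summed to 13.1 to 22.1 in TH and 1.58 to 4.5 in CC, and the highest CC sum was that of CC replicate 3, which had the highest CC level for 11 of the 19 genes. Without CC replicate 3, 15 leukocyte markers were still called higher in TH, as were 22 of the stromal matrix genes described below. The part of vessel, muscle, and leukocyte RNA in the differences that follow was not tested.

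Oocyte RNA moved little or towards CC, and the red cell genes had 1 call in each direction and 3 not called. Of 14 oocyte markers, 6 were higher in CC and 0 in TH (1 in TH without CC replicate 4), with a median of -0.68 (range -0.89 to -0.28). The zona protein ZP4 read -5.22, -4.66, -3.57, and -3.83 in TH and -0.81, -1.08, -2.49, and 0.21 in CC (-3.28 ± 0.61, adjusted p = 5.44e-04), and the oocyte factor NLRP5 read -6.19, -5.63, -6.28, and -5.77 in TH and -3.64, -3.90, -4.41, and -1.40 in CC (-2.63 ± 0.49, adjusted p = 5.59e-04). CC replicate 4 was the highest array for both, no TH array reached a CC array, and 3 of 4 TH arrays were above background for each. The growth factor GDF9 was at background on all TH arrays and higher in CC by at least 2.8-fold (adjusted p = 4.73e-04). The oocyte list summed to 4.38 to 11.4 in TH and 9.89 to 13.3 in CC, and most of both sums came from TLE6 alone, which was above background on all 8 arrays and was not called (-0.54 ± 0.28, adjusted p = 0.171). Of the 5 red cell genes, the globin HBB was above background on the 4 TH arrays and on no CC array, at least 1.27-fold higher (adjusted p = 0.00234), whereas HBA was higher in CC (-1.19 ± 0.27, adjusted p = 0.00313), a gene with near-identical copies whose 6 probes gave differences between -7.76 and -0.77.

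The 12 largest differences towards TH among genes measured on all 8 arrays were led by matrix genes. The calcification inhibitor MGP read 8.66, 8.22, 8.68, and 7.96 in TH and -2.50, -4.64, -0.36, and -4.02 in CC (11.26 ± 1.00, adjusted p = 3.82e-07), a 2452-fold difference. The TH arrays were close together, the CC arrays were widely spread with CC replicate 3 the highest, and the groups did not overlap. COL1A2, a chain of type I collagen, read 6.40, 6.22, 6.28, and 6.25 in TH and -6.0, -4.29, -1.42, and -1.29 in CC (9.54 ± 0.88, adjusted p = 5.60e-07), with CC replicates 3 and 4 above replicates 1 and 2. The proteoglycan BGN (9.32 ± 0.70, adjusted p = 6.44e-08), the type III collagen COL3A1 (8.70 ± 0.69, adjusted p = 1.12e-07), the elastic fibre protein FBLN5 (7.46 ± 0.54, adjusted p = 4.41e-08), and the gelatinase MMP2 (7.32 ± 0.58, adjusted p = 1.21e-07) belong to the same tissue frame. Outside it stood the membrane-bound carbonic anhydrase CA4 (8.83 ± 0.87), the sarcomere and stress fibre protein PDLIM3 (7.75 ± 0.64), xanthine dehydrogenase XDH (7.65 ± 0.54), OTOS (7.61 ± 0.80), the tetraspanin-like TM4SF1 (7.42 ± 0.45), and insulin-like growth factor IGF2 (7.41 ± 0.61). Adjusted p-values of these 6 ran from 7.14e-09 (TM4SF1) to 2.28e-06 (OTOS). CA4 read -5.88, -6.05, -4.48, and -5.58 in CC, and its 2 probes gave differences of 7.31 and 10.34. A gene counted as measured with 1 probe above background. Low CC levels such as these, or that of COL1A2 on CC replicate 1, can therefore lie near background.

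Towards CC, the largest measured difference was that of Indian hedgehog, IHH, a secreted signal of granulosa cells. It read -1.66, 0.23, -2.97, and -0.28 in TH and 7.86, 7.86, 7.68, and 7.65 in CC (-8.93 ± 0.53, adjusted p = 6.61e-09), 488-fold higher in CC. The 4 CC arrays were nearly equal, the 4 TH arrays were spread with TH replicate 3 the lowest, and the groups lay far apart. Next came the striated muscle actin ACTA1, at -2.91, -2.57, -2.76, and -2.03 in TH and 6.18, 5.55, 6.18, and 5.80 in CC (-8.49 ± 0.52, adjusted p = 9.11e-09). PDZK1IP1 (-7.77 ± 0.37), the guanylate cyclase activator GUCA1A (-7.56 ± 0.44), the glycine cleavage enzyme GLDC (-7.40 ± 0.31), the dynein chain DNAH17 (-6.44 ± 0.36), the mitochondrial protein MGARP (-6.41 ± 0.40), the ubiquitin ligase SH3RF2 (-6.29 ± 0.25), and the sushi domain protein SUSD4 (-6.25 ± 0.32) followed. Among these 7 the adjusted p ranged from 2.60e-10 (SH3RF2) to 1.05e-08 (MGARP). The lactate exporter SLC16A3 and the glucose transporter SLC2A3 complete the 12 with oxytocin, OXT, the peptide hormone that bovine granulosa cells make. OXT read -3.81, -3.46, -4.55, and -2.49 in TH and 2.16, 3.94, 2.47, and 3.95 in CC (-6.71 ± 0.67, adjusted p = 1.32e-06).

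Genes above background on all arrays of one group and no array of the other have only a bound. The 6 highest bounds towards TH were those of the small proteoglycan OGN (at least 562-fold), MYOC (at least 375-fold), PYROXD2 (at least 338-fold), the transcription factor TCF23 (at least 301-fold), the vascular basement membrane collagen COL15A1 (at least 280.0-fold), and the prostaglandin-degrading HPGD (at least 249-fold). OGN read 3.47, 3.85, 3.60, and 3.96 in TH. The 6 highest towards CC were the keratin KRT73 (at least 82.5-fold), the oxytocin receptor OXTR (at least 81.5-fold), LRRC36 (at least 49.9-fold), the protocadherin PCDH8 (at least 34.4-fold), the basigin relative EMB (at least 29.5-fold), and CA8 (at least 27-fold). The 2 KRT73 probes gave differences of -10.24 and -5.57, the smaller of them short of the gene's bound of 6.37 on the log2 scale. OXTR read 0.94, 1.40, 0.31, and 1.59 in CC and lay at background in TH, so the oxytocin gene and the gene of its receptor were both higher in CC. Adjusted p-values over these 12 genes were 4.77e-07 (OGN) or smaller.

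Most interstitial matrix genes were higher in TH. Of 27 stromal matrix genes, 22 were higher in TH, 1 was higher in CC, and 4 did not pass (2 were higher in CC without CC replicate 2, the second being periostin), with a median of 4.96 (range 2.90 to 5.16) and summed levels of 813 to 1050 in TH and 30.2 to 41.7 in CC. Elastin ELN was higher in TH by at least 61.2-fold (adjusted p = 3.25e-07), fibronectin FN1 differed by 7.04 ± 0.63 (adjusted p = 4.20e-07), and lumican LUM by 4.32 ± 0.46 (adjusted p = 2.85e-06). Periostin POSTN did not pass (-1.32 ± 0.50, adjusted p = 0.0579). The one member higher in CC was versican, VCAN, a proteoglycan of the hyaluronan matrix that cumulus cells build. It read -2.83, -2.53, -2.57, and -2.85 in TH and 1.97, 1.51, 1.77, and 1.56 in CC (-4.40 ± 0.23, adjusted p = 1.71e-09).

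The sheet matrix split by chain. Of 21 basal lamina genes, 12 were higher in TH and 3 in CC, with a median of 1.13 (range 0.30 to 1.58). The nidogens NID2 (6.44 ± 0.48, adjusted p = 5.89e-08) and NID1 (at least 15.1-fold, adjusted p = 1.16e-08), which link laminin to type IV collagen, the laminin chains LAMA2 (at least 22.6-fold) and LAMA4 (at least 11.6-fold), and the collagens COL4A1 (3.22 ± 0.23, adjusted p = 3.23e-08) and COL4A2 (3.49 ± 0.41, adjusted p = 7.14e-06) were higher in TH. Higher in CC were COL4A3 (-0.59 ± 0.21, adjusted p = 0.0411, a call lost without TH replicate 2 or 4 and without any single CC array) and the perlecan gene HSPG2 (-1.82 ± 0.51, adjusted p = 0.0116). Of 22 matrix protease and inhibitor genes, 9 were higher in TH and 2 in CC (median 1.14, range 0.50 to 1.47). The protease ADAMTS1 (5.01 ± 0.41, adjusted p = 1.52e-07) and the inhibitors TIMP2 (4.03 ± 0.44, adjusted p = 3.57e-06) and TIMP3 (3.17 ± 0.32, adjusted p = 1.30e-06) were on the TH side. SERPINE2, which blocks plasminogen activators, was on the CC side (-2.96 ± 0.16, adjusted p = 3.18e-09).

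**Figure D3:**
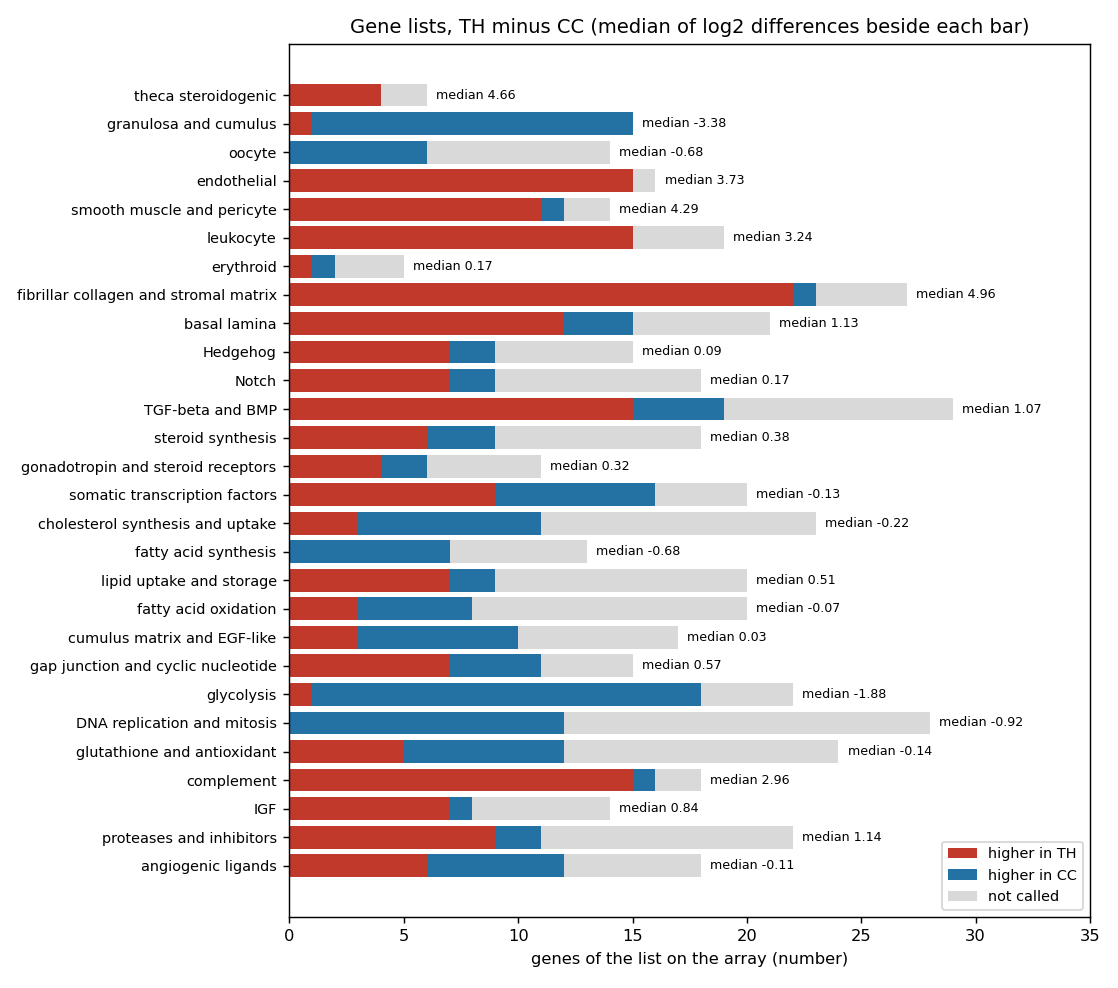
Number of genes of each of the 28 lists on the array (horizontal axis) that were higher in TH (red), higher in CC (blue), or not called (grey), with the median TH minus CC log2 difference of the list beside its bar. Over all 22550 genes, 14.4% were higher in TH and 17.4% higher in CC. Matrix, vessel, muscle, leukocyte, and complement lists are mostly red, and granulosa and glycolysis lists mostly blue.

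Hedgehog signals bind the receptor PTCH1, which frees SMO to act through the GLI factors, and GLI1, PTCH1, and HHIP are themselves targets. In the ovary the ligands come from granulosa cells and the targets lie in the theca. Of 15 genes of the pathway, 7 were higher in TH, 2 were higher in CC, and 6 did not pass, with a median of 0.09 (range -0.04 to 1.64). Among ligands, IHH was higher in CC as given above, DHH did not pass (-0.52 ± 0.51, adjusted p = 0.541), and SHH was above background on no array. The release protein DISP1 was slightly higher in CC (-0.58 ± 0.19, adjusted p = 0.0278), a call lost without CC replicate 1, without CC replicate 4, or without TH replicate 4.

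On the receiving side, the genes with a call were higher in TH. GLI1 read 1.35, 1.57, 1.04, and 1.30 in TH and -4.65, -5.04, -4.37, and -5.16 in CC (6.12 ± 0.36, adjusted p = 5.70e-09), 69.6-fold higher in TH with no overlap. HHIP, the ligand trap, was at -3.95, -3.32, -3.36, and -3.41 in TH and at background on every CC array, at least 3.74-fold higher (adjusted p = 3.06e-09). The receptor PTCH1 differed by 1.64 ± 0.38 (adjusted p = 0.00333). The coreceptors CDON (at least 3.06-fold, adjusted p = 3.45e-08) and GAS1 (2.41 ± 0.36, adjusted p = 6.85e-05) and the factor GLI3 (2.32 ± 0.66, adjusted p = 0.0128) were also higher in TH, GAS1 above background on 2 and GLI3 on 1 of 4 CC arrays. The transducer SMO did not pass (-0.01 ± 0.34, adjusted p = 0.986), nor did the coreceptor BOC (-0.57 ± 0.27, adjusted p = 0.131) or the inhibitor SUFU (-0.61 ± 0.25, adjusted p = 0.0829). IHH and GLI1 were thus the members with the largest differences, and they pointed in opposite directions. Both kept their call under every alternative tried, also within each slide.

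**Figure D4:**
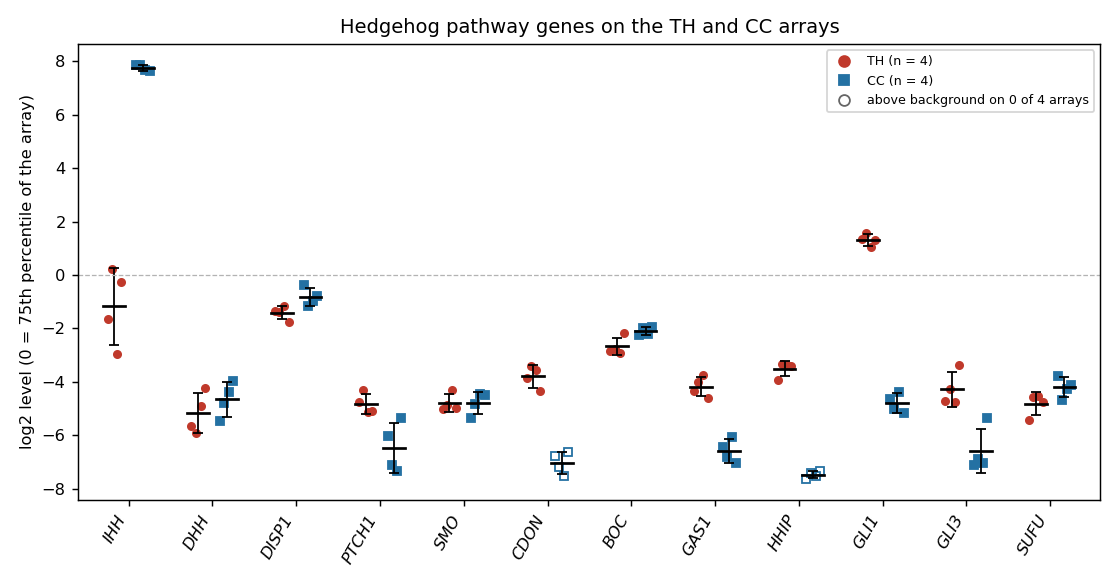
Log2 level (0 at the 75th percentile of the array) of 12 Hedgehog pathway genes on the 4 TH arrays (red circles) and the 4 CC arrays (blue squares), with mean and SD. Open symbols mark a group above background on 0 of 4 arrays. IHH is high in CC with TH lower and spread out, and GLI1, HHIP, PTCH1, CDON, GAS1, and GLI3 are higher in TH. Levels compare within a gene.

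Notch receptors act between neighbouring cells. Of 18 genes of that pathway, 7 were higher in TH and 2 in CC (median 0.17, range 0.04 to 0.37). The ligand JAG1 (3.54 ± 0.54, adjusted p = 8.86e-05), the glycosyltransferase MFNG that tunes the receptors (6.83 ± 0.55, adjusted p = 1.38e-07, above background on 3 of 4 CC arrays), and the target HEYL (6.17 ± 0.45, adjusted p = 4.83e-08) were higher in TH. The ligand DLL4 (-1.84 ± 0.25, adjusted p = 3.33e-05) and the target HEY2 (-3.07 ± 0.17, adjusted p = 4.32e-09) were higher in CC. NOTCH2 was higher in TH by a small amount (0.52 ± 0.15, adjusted p = 0.0127). The 2 HEY family targets with a call therefore moved in opposite directions.

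TGF-beta and BMP genes lay mostly on the TH side, 15 of 29 against 4 in CC (median 1.07, range 0.25 to 1.37). The ligands TGFB3 (5.38 ± 0.24, adjusted p = 4.74e-10) and BMP4 (4.39 ± 0.61, adjusted p = 3.97e-05, above background on 2 of 4 CC arrays), the receptor TGFBR2 (5.80 ± 0.46, adjusted p = 1.15e-07, on 3 of 4), the transducer SMAD9 (4.66 ± 0.31, adjusted p = 1.87e-08), and the targets ID1 (5.41 ± 0.50, adjusted p = 5.93e-07) and ID3 (2.33 ± 0.20, adjusted p = 3.22e-07) were higher in TH. On the CC side stood the BMP antagonists NOG and CHRD. NOG was at background in TH and higher in CC by at least 6.29-fold (adjusted p = 1.08e-05), a bound for the gene, with probe differences of -5.02 and -2.59. CHRD differed by -1.65 ± 0.20 (adjusted p = 7.55e-06), but its 2 probes gave -3.47 and 0.17, so that the brighter one alone turns its direction. SMAD2, which carries activin and TGF-beta signals, was higher in CC as well (-2.70 ± 0.18, adjusted p = 1.56e-08).

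Of 14 insulin-like growth factor genes, 7 were higher in TH and 1 was higher in CC (median 0.84, range 0.53 to 1.35). IGF2 read 5.67, 5.10, 5.49, and 5.05 in TH and -1.68, -3.26, -0.88, and -2.49 in CC. The binding proteins IGFBP6 (6.68 ± 0.32, adjusted p = 9.40e-10), IGFBP4 (3.27 ± 0.34, adjusted p = 2.00e-06), and IGFBP3 (2.76 ± 0.39, adjusted p = 4.47e-05) were higher in TH too. The receptor IGF1R went the other way, at -3.85, -4.25, -4.23, and -2.61 in TH and -1.16, 0.32, -1.27, and -1.18 in CC (-2.91 ± 0.61, adjusted p = 0.00155), a call lost within either slide alone, so that the IGF2 ligand and the IGF1R receptor were higher in different layers.

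Vessel growth factors were divided evenly, with 6 of 18 higher in TH and 6 in CC (median -0.11, range -0.44 to 0.11). VEGFA (-3.06 ± 0.23, adjusted p = 5.92e-08), VEGFC (-2.17 ± 0.19, adjusted p = 4.15e-07), placental growth factor PGF (-5.02 ± 0.52, adjusted p = 1.83e-06), and the vessel-destabilising ANGPT2 (-1.99 ± 0.49, adjusted p = 0.00511) were higher in CC, the tissue without vessels. Higher in TH were the chemokine CXCL12 (5.11 ± 0.25, adjusted p = 1.10e-09), the fibroblast growth factor FGF1 (5.25 ± 0.58, adjusted p = 3.75e-06, above background on 2 of 4 CC arrays), FIGF, which encodes VEGF-D (6.38 ± 0.42, adjusted p = 1.52e-08, on 1 of 4), and PDGFD (at least 2.4-fold, adjusted p = 4.14e-09).

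Of 18 enzymes and cofactors of steroid synthesis, 6 were higher in TH and 3 in CC, the latter a share close to the 17.4% of all genes (median 0.38, range 0.25 to 0.58). Besides CYP17A1 and STAR, the electron carrier FDX1 (2.67 ± 0.19, adjusted p = 3.31e-08), the cortisol-inactivating HSD11B2 (3.46 ± 0.70, adjusted p = 0.00116, above background on 2 of 4 CC arrays), and the sulfotransferase SULT1A1 (2.84 ± 0.47, adjusted p = 1.92e-04) were higher in TH. Higher in CC were CYP19A1 as above, HSD17B1 (-3.38 ± 0.35, adjusted p = 1.70e-06), which makes estradiol from estrone, and the reductase POR (-1.75 ± 0.51, adjusted p = 0.0145). Of the other 17-beta-hydroxysteroid dehydrogenase genes listed, HSD17B12 was higher in TH (1.07 ± 0.14, adjusted p = 1.93e-05) and HSD17B7 did not pass (0.25 ± 0.24, adjusted p = 0.517). Among 11 hormone receptors, 4 were higher in TH and 2 in CC (median 0.32, range -0.02 to 0.59). LHCGR, the prolactin receptor PRLR (2.79 ± 0.71, adjusted p = 0.00616, above background on 1 of 4 CC arrays), the glucocorticoid receptor NR3C1 (2.24 ± 0.47, adjusted p = 0.00161), and PGRMC1 (1.04 ± 0.19, adjusted p = 4.67e-04) were higher in TH. The estrogen receptor ESR2 read -4.44 ± 0.38 in TH and -0.43 ± 0.31 in CC (mean ± SD, n = 4, -4.01 ± 0.25, adjusted p = 8.99e-09), on the same side as FSHR. The progesterone receptor PGR did not pass (-0.31 ± 0.34, adjusted p = 0.595).

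Of 20 transcription factors of the follicle's somatic cells, 9 were higher in TH and 7 in CC (median -0.13, range -0.33 to 0.85). NR2F2, a nuclear receptor of stromal and theca cells, read 5.21, 5.36, 5.48, and 5.40 in TH and 1.31, 1.31, 1.08, and 1.25 in CC (4.12 ± 0.22, adjusted p = 2.21e-09). LHX9 was higher in TH by at least 17.1-fold (adjusted p = 3.74e-09), and TCF21 differed by 4.36 ± 0.60 (adjusted p = 3.46e-05). NR5A2, which granulosa cells need for ovulation, differed by -5.85 ± 0.45 (adjusted p = 8.18e-08), EMX2 by -4.32 ± 0.55 (adjusted p = 1.52e-05), and the granulosa identity factor FOXL2 by -1.64 ± 0.55 (adjusted p = 0.0339), all towards CC, with NR5A2 above background on 3 of 4 TH arrays. The FOXL2 call was lost without TH replicate 1, 3, or 4 and without CC replicate 1 or 2. GATA4 (-1.19 ± 0.18, adjusted p = 7.99e-05) and GATA6 (-1.19 ± 0.34, adjusted p = 0.0141) were moderately higher in CC, and the steroidogenic factor NR5A1 did not pass (-0.20 ± 0.25, adjusted p = 0.658).

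Glycolysis was the metabolic list with the largest share of calls. Of 22 genes of glucose and lactate transport and glycolysis, 17 were higher in CC, 1 was higher in TH, and 4 did not pass, with a median of -1.88 (range -2.08 to -1.67) and summed levels of 249 to 319 in TH and 749 to 925 in CC. SLC16A3, which carries lactate out of the cell, read -2.28, -2.95, -2.90, and -2.24 in TH and 3.99, 4.61, 4.14, and 4.47 in CC (-6.90 ± 0.34, adjusted p = 1.29e-09). The glucose transporter SLC2A3 read -3.29, -2.51, -2.23, and -3.50 in TH and 3.90, 3.71, 3.45, and 3.26 in CC (-6.46 ± 0.31, adjusted p = 8.19e-10), and SLC2A1 differed by -2.24 ± 0.17 (adjusted p = 8.68e-08). Hexokinase HK2, the entry step, was at -3.72, -2.88, -3.37, and -3.70 in TH and 1.73, 2.13, 1.65, and 1.72 in CC (-5.22 ± 0.23, adjusted p = 4.74e-10), while HK1 differed by only -0.76 ± 0.21 (adjusted p = 0.0116). Lactate dehydrogenase LDHA read 2.11, 2.75, 2.37, and 2.70 in TH and 5.93, 6.45, 6.19, and 6.34 in CC (-3.74 ± 0.27, adjusted p = 3.57e-08), and LDHB did not pass (0.30 ± 0.17, adjusted p = 0.207). The phosphofructokinase genes had opposite calls, with PFKL higher in CC (-2.86 ± 0.34, adjusted p = 7.10e-06) and PFKM higher in TH (1.41 ± 0.26, adjusted p = 5.12e-04). The GAPDH probes were above background on no array.

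**Figure D5:**
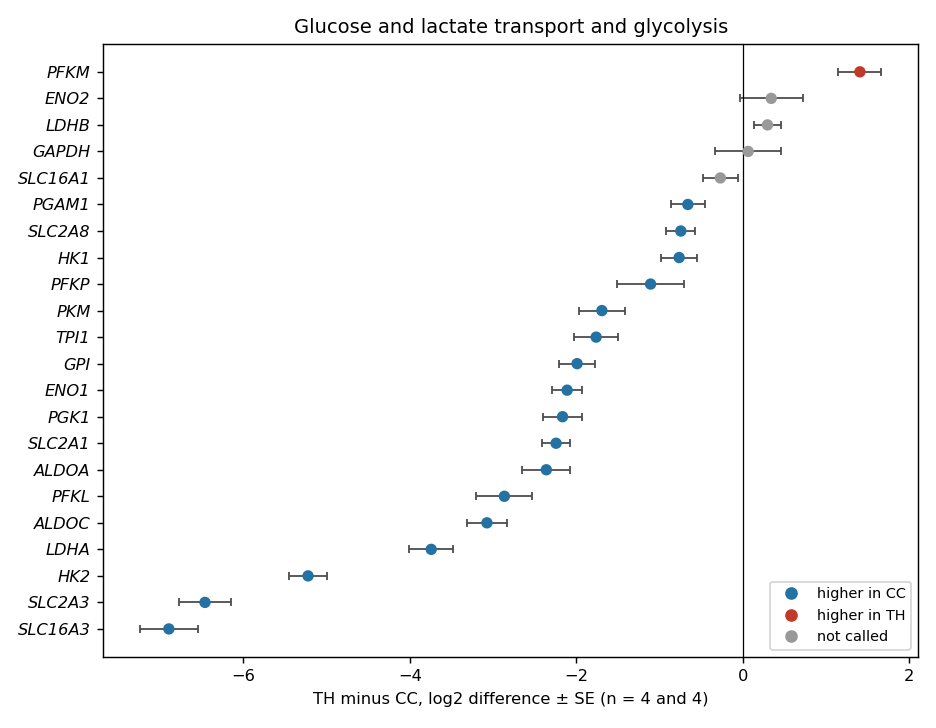
TH minus CC difference (log2, horizontal axis, ± SE from the limma fit, 4 and 4 arrays) for the 22 genes of glucose and lactate transport and glycolysis. Blue points are the 17 genes higher in CC, the red point is PFKM, higher in TH, and grey points are the 4 not called. GAPDH was above background on no array.

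The sterol pathway was weaker and mixed. Of 23 genes, 8 were higher in CC and 3 in TH, with 12 not called (median -0.22, range -0.35 to -0.02). The cyclase LSS (-2.56 ± 0.23, adjusted p = 4.03e-07) and the sterol sensor INSIG1 (-2.32 ± 0.29, adjusted p = 1.47e-05) were higher in CC. The HDL receptor SCARB1 was higher in TH (0.91 ± 0.20, adjusted p = 0.0022). TM7SF2, of sterol synthesis, was also called higher in TH (1.01 ± 0.36, adjusted p = 0.0433), a call lost without TH replicate 3 or 4 and without CC replicate 1, 3, or 4. The TH count was 1 without TH replicate 3 and without CC replicate 1, 3, or 4. Of 13 genes of fatty acid synthesis, 7 were higher in CC and 0 in TH (median -0.68, range -0.86 to -0.36), led by the desaturase SCD, at -4.01, -2.94, -3.93, and -3.94 in TH and 0.27, 0.53, -0.01, and -0.09 in CC (-3.88 ± 0.31, adjusted p = 1.14e-07). The synthase FASN did not pass (-0.46 ± 0.62, adjusted p = 0.683).

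Among 20 genes of lipid uptake and storage, 7 were higher in TH and 2 in CC (median 0.51, range 0.19 to 0.71). The caveolar protein CAV1 (6.35 ± 0.59, adjusted p = 6.51e-07) and the lipoprotein lipase LPL (2.45 ± 0.31, adjusted p = 1.48e-05) were the largest on the TH side, and VLDLR (-2.18 ± 0.24, adjusted p = 3.68e-06) and the fatty acid binder FABP3 (-1.51 ± 0.26, adjusted p = 3.38e-04) were the CC ones. The TH count was 4 without TH replicate 4, without CC replicate 1, or without CC replicate 2. Fatty acid oxidation had 3 of 20 genes higher in TH and 5 in CC (median -0.07, range -0.20 to 0.14), beside 14.4% and 17.4% of all genes. Its entry enzyme CPT1A was higher in TH (4.11 ± 0.26, adjusted p = 1.35e-08). The lipid-sensing PPARG of the same list was higher in CC, at -0.41, -0.51, -0.95, and -0.43 in TH and 4.08, 4.32, 4.41, and 4.46 in CC (-4.89 ± 0.21, adjusted p = 4.16e-10).

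The cumulus matrix and its inducers had 7 of 17 genes higher in CC and 3 in TH (median 0.03, range -1.36 to 0.23). The EGF-like ligand BTC (-5.63 ± 0.47, adjusted p = 1.86e-07), the hyaluronan-linking TNFAIP6 (-5.39 ± 0.69, adjusted p = 1.74e-05), the link protein HAPLN3 (-2.38 ± 0.31, adjusted p = 1.96e-05), and the receptor EGFR (-1.65 ± 0.19, adjusted p = 5.24e-06) were higher in CC before maturation. BTC and TNFAIP6 were above background on 2 of 4 TH arrays. The ovulatory ligands AREG and EREG were above background on no array of either group. The prostaglandin receptor PTGER4 was higher in TH (4.59 ± 0.51, adjusted p = 3.93e-06), above background on 1 of 4 CC arrays.

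Gap junction and cyclic nucleotide genes were split, with 7 of 15 higher in TH and 4 in CC (median 0.57, range 0.08 to 0.83). GJA1, the connexin between cumulus cells, was higher in CC (-1.32 ± 0.19, adjusted p = 5.78e-05), as was NPR2 (-1.79 ± 0.40, adjusted p = 0.00259, above background on 2 of 4 TH arrays), the receptor through which C-type natriuretic peptide raises cyclic GMP. Its ligand gene NPPC was higher in TH (1.19 ± 0.42, adjusted p = 0.042), a call lost when any array but TH replicate 4 was left out, and so were both chains of soluble guanylate cyclase, GUCY1A1 (1.78 ± 0.17, adjusted p = 9.11e-07) and GUCY1B1 (1.35 ± 0.27, adjusted p = 0.00113). The vessel connexin GJA5 was higher in TH (3.11 ± 0.44, adjusted p = 4.13e-05), above background on 3 of 4 CC arrays and with probe differences of 1.15 and 5.08.

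Proliferation genes were higher in CC where they were called. Of 28 genes of DNA replication and mitosis, 12 were higher in CC and 0 in TH (median -0.92, range -1.32 to -0.65). The mitotic kinases PLK1 (-2.84 ± 0.40, adjusted p = 4.65e-05) and AURKA (-1.96 ± 0.31, adjusted p = 1.53e-04) and the helicase subunit MCM5 (-1.80 ± 0.35, adjusted p = 7.54e-04) led the list, and MKI67 did not pass (-0.84 ± 0.40, adjusted p = 0.141). The count fell to 7 without TH replicate 1, without TH replicate 3, without CC replicate 2, or without CC replicate 4. The TH arrays themselves differed, with summed levels of 36.2 to 74.5 against 86.7 to 110 in CC.

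Of 24 glutathione and antioxidant genes, 7 were higher in CC and 5 in TH (median -0.14, range -0.27 to 0.06). The catalytic subunit of glutathione synthesis GCLC was far higher in CC (-4.29 ± 0.17, adjusted p = 2.01e-10), and its modifier GCLM (-1.76 ± 0.18, adjusted p = 2.25e-06) and the peroxidase GPX1 (-2.23 ± 0.25, adjusted p = 4.86e-06) were on the same side. The transferases GSTM1 (1.88 ± 0.24, adjusted p = 1.36e-05) and GSTM3 (1.59 ± 0.19, adjusted p = 8.26e-06) and the mitochondrial dismutase SOD2 (1.27 ± 0.27, adjusted p = 0.00156) were higher in TH. In complement, 15 of 18 genes were higher in TH and 1 was higher in CC (median 2.96, range 1.65 to 3.16). C7 of the attack complex was at background on all CC arrays and higher in TH by at least 161-fold (adjusted p = 8.88e-08), and C1S differed by 7.0 ± 0.47 (adjusted p = 2.30e-08). The central component C3 was the exception, at -5.40, -6.56, -6.46, and -4.41 in TH and -2.84, -2.0, -2.27, and -2.18 in CC (-3.39 ± 0.54, adjusted p = 1.54e-04), above background on 1 of 4 TH arrays.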

How the data were processed

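RNA of the 20 samples, 4 each of TH, granulosa cells, CC, oocytes, and CC after in vitro maturation, had been labelled with Cy3 from 200 ng of total RNA and hybridised to a custom bovine Agilent array, 1 array per sample. The authors deposited scanner intensity per spot from Agilent Feature Extraction 10.7.3.1, background-subtracted and detrended within the array but not normalized between arrays. They also deposited a table of log2 values. Its medians of 0 on each of the 8 arrays show centring on the array median, and it correlated with log2 processed intensity at 0.969 to 0.986, so its scale and direction are settled, while the steps behind it are not given in the sources used here.

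Here, log2 processed intensity minus the 75th percentile of each array was computed without control and outlier spots, and the spots of each gene were reduced to their median. Genes without a symbol on the array were named through RefSeq accessions where these matched. TH and CC were compared with limma 3.58.1 in R 4.3.3 in a fit over the 16 arrays of TH, granulosa cells, CC, and oocytes, with Benjamini-Hochberg adjustment over 22550 genes and a threshold of 0.05. The SE is that of the limma fit. Tables and figures were made with Python 3.11.15, pandas 2.3.3, and matplotlib 3.10.9. A gene counted as above background on an array if at least 1 of its probes did. Where a group had no array above background, a bound is given in place of a fold, formed against the lowest signal well above background or the signal of the gene, whichever was higher. It is a bound for the gene over its spots, and a single probe can differ by less.

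Genes named by size were the 12 largest differences in each direction among genes with a symbol, measured on all 8 arrays, called, and without overlap, and the 6 largest bounds in each direction. The others are members of 28 lists, named as defining members, as the largest differences, or for a known role. The members and lists were chosen with earlier results of these data known. Among the listed genes, MOS, SOX18, ACTG2, HBA1, LAMB2, BMPR2, ID4, INSR, and FGF10 were not analysed here. On simulated data, 26% of 200 genes changed by 1 on the log2 scale and 78.5% of those changed by 2 were recovered, with 2 and 9 false calls among 22550 genes. Only those 200 genes differed between groups there, whereas 7165 genes were called here. The threshold after adjustment depends on that share, so the simulated recovery does not give the recovery in these data. The number of arrays, 4 per group, limits the precision. The labels do not say whether replicates came from separate animals, so p-values rest on the spread between samples. That spread was estimated over the 16 arrays of the fit and not from TH and CC alone. In all, 25 alternatives were tried, among them other background corrections, scalings, spot summaries, samples in the fit, blocks, and leaving out each array.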

Additional observations from a re-analysis of the deposited data

Results flagged for a closer look

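For 17 of 326 groups of 4 arrays that were above background, 1 array lay far from the other 3, with a gap to the nearest of them, as a share of the range of the group, above Dixon's critical value for 4 arrays. Chance gives such a gap in about 1 of 20 groups. CC replicate 2 was the outlying array in 5 and TH replicate 4 in 4 of them.

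In CC replicate 2, HK2 (at 2.13, gap 0.841 of the range), HSD17B1 (at 6.81, 0.896), HSPG2 (at -0.54, 0.948), IGF1R (at 0.32, 0.935), and VLDLR (at 2.35, 0.87) stood apart from the other CC arrays. In TH replicate 4, the genes were GATA6 (at -1.58, 0.901), GCLM (at -1.47, 0.833), NR3C1 (at -1.36, 0.938), and SMAD2 (at 0.73, 0.912).

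In the other TH arrays, HHIP was at -3.95 in replicate 1 (0.863), BMP4 at -1.26 (0.871) and SCD at -2.94 (0.924) in replicate 2, and TGFB3 at 1.80 in replicate 3 (0.859). In the other CC arrays, COL4A3 was at 2.43 (0.931) and EMX2 at -0.67 (0.831) in replicate 1, TCF21 at -0.19 in replicate 3 (0.883), and SCARB1 at 4.85 in replicate 4 (0.948).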

How the results depend on the processing

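Direction and call held under all 25 alternatives for 143 of the 175 called genes named in the text, among them all 36 named by size. The counts of genes higher in TH and in CC were 1837 and 1483 (3320 in all) within the first slide and 2112 and 2044 (4156 in all) within the second, where only 2 arrays per group remain. Leaving out 1 array gave 2874 to 3279 genes higher in TH, 3380 to 3916 higher in CC, and 6333 to 7195 in all. The other alternatives kept each count within 1.5 times, from 2462 (normexp background correction) to 4288 genes higher in TH and from 2843 (percentile of detected probes) to 5411 higher in CC, both highest with array weights. The median of all genes moved to 0.20 with the percentile of probes detected on all arrays, to -0.13 with the array median (2679 and 4535), and to -0.14 in the deposited log2 table (2624 and 4296). The methods' analysis of variance and Tukey test gave 3118 and 3717.

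TH and CC samples that share a replicate number deviated from their group means with correlations of 0.31, -0.05, 0.05, and 0.24 over 12441 genes. Of the TH replicates, replicate 1 alone correlated best with the CC sample of its number. With 4 arrays per group, these correlations cannot decide whether the numbers pair the samples. With replicate number as a block, 3320 genes were higher in TH and 4024 in CC, and TM7SF2 lost its call.

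Normexp background correction lowered the TH count from 7 to 4 for the Hedgehog, Notch, and gap junction lists and the CC count of the oocyte list from 6 to 2. The percentile of detected probes lowered the CC counts of the replication, fatty acid synthesis, and transcription factor lists to 7, 4, and 4. Within the slides, the CC counts were 4 and 2 for replication, 2 and 1 for fatty acid synthesis, and 3 and 3 for oocyte markers, and the calls of IGF1R, ANGPT2, POR, PRLR, GLI3, GATA6, HSPG2, HBA, HK1, NPR2, GUCY1B1, FOXL2, NOTCH2, COL4A3, and DISP1 were lost in both. Neither DISP1 nor COL4A3 kept its call in a fit of the 8 arrays alone.

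One called gene reversed, CHRD, at 0.17 with the brightest probe alone. Among genes not called, SMO was at 0.19 with the percentile of detected probes, 0.52 with the brightest probe, and 0.15 within the first slide, and ran from -0.21 to 0.10 when 1 array was left out. FLT1 was at 0.12 and 0.072 under those first alternatives, 0.09 within the first slide, and 0.012 with array weights, and ran from -0.35 to 0.16. NR5A1 was at 0.015 with normexp, 0.0042 with the percentile of detected probes, 0.22 with the brightest probe, and 0.23 within the second slide. FASN was at 0.29 within the second slide and ran from -0.73 to 0.084. TLE6 was at 0.53 with the brightest probe and HSD17B7 at -0.018 within the first slide. The causes were not tested.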

Other observations

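Granulosa cells (GC), on 4 arrays that no test here compares, lay between TH and CC for most genes called between these layers. The granulosa mean was between the TH and CC means for 2483 of the 3242 genes higher in TH (76.6%) and for 2881 of the 3923 higher in CC (73.4%), against 9695 of all 22550 genes (43.0%). It was so for all 36 genes named by size. The 3 groups were not tested for an order, and the called genes were chosen by the distance of 2 of them.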
